A study of Mus musculus with 4 samples.

Results

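The genes followed here are 10 members of the core autophagy machinery, measured in sorted cochlear cells with and without gentamicin: Ulk1, Becn1, Wipi1, Atg12, Atg5, Atg7, Map1lc3a, Map1lc3b, Gabarapl1 and Sqstm1. They were chosen by symbol among the 23420 genes listed, and all 10 were found in all 4 groups. Cochleae came from postnatal day 1 mice of the CD1 strain that carried the Atoh1-GFP transgene, in which an Atoh1 enhancer drives GFP in hair cells. All organs were kept in explant culture overnight at low oxygen with penicillin in the medium, and one arm then received 0.5 mM gentamicin, an aminoglycoside antibiotic that damages hair cells, for 3 h. GFP positive cells (hair cells) and GFP negative cells (non-hair cells, a mixture of supporting cells, other epithelial cells and surrounding tissue) were sorted from control and from gentamicin-treated organs. This gave 4 groups of 3 biological replicates, each with polyA RNA sequencing of a pool of sorted cells.

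Autophagy delivers cytoplasm and damaged organelles to the lysosome inside a double membrane. The ULK kinase complex starts it, the class III phosphatidylinositol 3-kinase complex with Becn1 makes a lipid signal that WIPI proteins read, and a conjugation system built on Atg7, Atg12 and Atg5 attaches proteins of the Atg8 family (Map1lc3a, Map1lc3b, Gabarapl1) to the growing membrane. Sqstm1 carries ubiquitinated cargo to the Atg8 proteins and is itself degraded with the cargo. Autophagy proceeds largely through proteins and lipids, so transcript levels do not measure its rate.

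The values given for each gene are normalized read numbers, that is reads on the gene scaled for the replicate with 1 added, so ratios of low values are understated. Each replicate held 22400444 to 28152093 reads on genes, recovered from these values, and each of the 10 genes had at least 301 reads in every replicate. The labels were checked against the summed normalized read number of 8 hair cell markers, which lay between 11120 and 11540 in control hair cells, between 9457 and 10640 in treated hair cells and between 210.6 and 299.6 in all non-hair cell replicates. Markers of other cell types also moved with treatment in the hair cell fraction. Markers counted or named as changed met the criteria given in the next paragraph. Of all genes 14.8% met these downward and 12.7% upward in hair cells. The sum of 10 supporting cell markers was 1847 to 2212 in control and 816.6 to 1539 in treated hair cells, and 4 of the 10 fell. In control non-hair cells, which hold the supporting cells, the same sum was only 1254 to 1827, so this list did not set supporting cells apart here. The sum of 6 macrophage markers was 4.24 to 5.56 against 15.1 to 21.3, and 1 of the 6, Cd68, rose (log2 difference 2.52). C1qa, C1qb, Csf1r, Cx3cr1 and Aif1 lay between -0.01 and 0.26 and did not meet the criteria. Mesenchyme markers summed to 174.1 to 440.4 against 89.0 to 142.0, with 2 of 5 lower. Those of Schwann cells and glia summed to 221.8 to 266.1 against 114.0 to 189.5, also with 2 of 5 lower. No marker of these 4 lists was at 0 in all 3 replicates of a group. Melanocyte markers in hair cells summed to 9.30 to 12.26 against 6.51 to 7.70, with Tyr lower. Endothelial markers in hair cells summed to 34.2 to 46.9 against 26.2 to 35.4, which overlapped, with Cdh5 lower. The non-hair cell fraction moved as well, where 3.18% of all genes met the criteria upward and 2.26% downward. Its 5 endothelial markers summed to 150.5 to 249.4 in control and 262.4 to 377.7 after gentamicin. Cldn5 and Egfl7 were higher, while Pecam1, Cdh5 and Kdr did not meet the criteria. Its neuron markers summed to 564.0 to 1410 against 291.2 to 1063, which overlapped. Of the melanocyte markers, Dct was lower in non-hair cells (log2 difference -0.66). The part of all these markers in the results below was not tested. In sorted pools fewer cells of a type and less RNA per cell cannot be told apart.

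A gene was called changed by gentamicin where limma, tested on 2 sides, gave an unadjusted p below 0.01 and the levels differed by more than 1.2-fold, and adjusted p-values were taken over all 16077 genes tested. In hair cells 4 of the 10 genes met these criteria, Ulk1 and Wipi1 lower and Atg5 and Atg12 higher. Of all genes tested 27.5% met them, 12.7% upward and 14.8% downward, so that 46.1% of these calls were upward, a share that became 63.6% when replicates were scaled by total reads. The median log2 difference was -0.15 over the 10 genes and -0.09 over all genes. Control and treated hair cell replicates did not overlap for 9 of the 10 genes and for 54.8% of all genes, and an unadjusted p under 0.05 was found for 7 of the 10 and 44.2% of all genes. In non-hair cells 1 of the 10, Gabarapl1, met the criteria, against 5.44% of all genes, with 3.18% upward and 2.26% downward (58.5% of these calls upward, or 69.2% scaled by total reads). There the groups did not overlap for 3 of the 10 genes and for 17.8% of all genes.

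**Figure D1:**
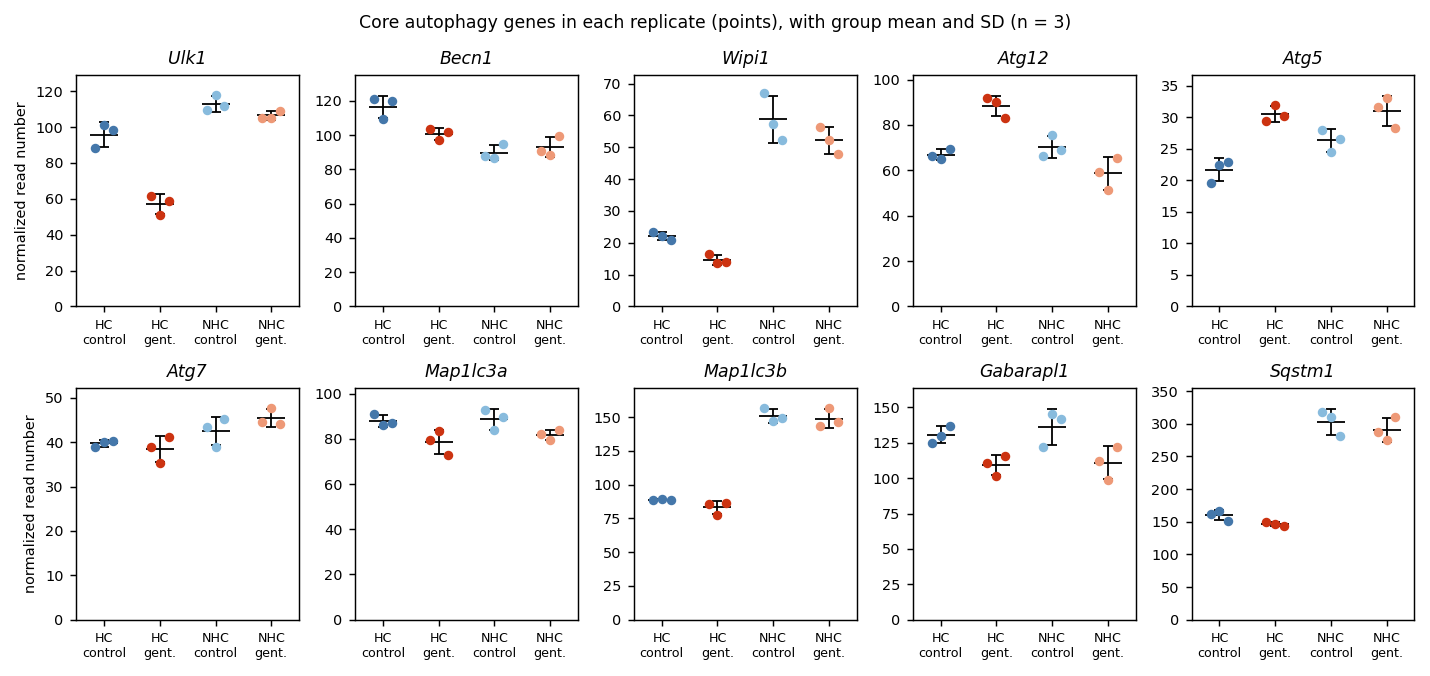
Normalized read numbers of the 10 genes (vertical axis from 0) in hair cells (HC) and non-hair cells (NHC), control and gentamicin-treated (gent.), with a point per replicate and the mean and SD of each group (n = 3). Ulk1 and Wipi1 lay lower and Atg12 and Atg5 higher in treated than in control hair cells without overlap, while Sqstm1, Map1lc3b and Wipi1 differed mainly between hair cells and non-hair cells.

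The start sequences of the 3 genes with the largest changes in hair cells are shown for reference, read from the RefSeq promoter set on GRCm38.p6, which covers 250 bases before and 50 bases after an annotated transcript start. Of the 10 genes 7 had an entry there. These starts need not be the outermost start of the gene in GENCODE: that of Wipi1 lay 578 bases inside the gene and that of Atg7 27999 bases inside it, whereas the other 5 lay within 77 bases of the outer start. The sequences are 5′ to 3′ on the strand of the gene: Ulk1 at chr5:110810032-110810331 (minus strand), Wipi1 at chr11:109611340-109611639 (minus strand) and Atg5 at chr10:44268089-44268388 (plus strand). Capitals mark CACGTG, the core of the element bound by TFEB and related factors that is known from lysosomal and autophagy genes.
Ulk1: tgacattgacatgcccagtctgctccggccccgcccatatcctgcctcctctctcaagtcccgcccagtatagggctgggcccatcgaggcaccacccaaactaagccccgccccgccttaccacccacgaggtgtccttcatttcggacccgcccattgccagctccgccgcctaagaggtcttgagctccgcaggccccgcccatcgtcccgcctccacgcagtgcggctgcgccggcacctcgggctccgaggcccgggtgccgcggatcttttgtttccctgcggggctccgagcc
Wipi1: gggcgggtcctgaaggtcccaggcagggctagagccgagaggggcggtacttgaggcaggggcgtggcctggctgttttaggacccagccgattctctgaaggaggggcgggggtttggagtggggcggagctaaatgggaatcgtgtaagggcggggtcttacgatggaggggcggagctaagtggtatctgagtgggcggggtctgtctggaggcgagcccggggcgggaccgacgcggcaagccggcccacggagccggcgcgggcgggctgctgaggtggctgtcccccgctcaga
Atg5: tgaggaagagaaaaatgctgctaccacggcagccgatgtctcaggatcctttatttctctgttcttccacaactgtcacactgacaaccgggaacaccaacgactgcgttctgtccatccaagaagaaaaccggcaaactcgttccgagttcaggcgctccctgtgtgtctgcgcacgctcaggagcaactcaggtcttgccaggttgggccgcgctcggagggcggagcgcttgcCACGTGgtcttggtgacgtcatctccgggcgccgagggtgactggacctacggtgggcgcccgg
Both strands were searched for CACGTG, for TGACNNNGC (the core of the antioxidant response element) and for TGATGCAA (an element bound by C/EBP and ATF dimers). CACGTG was found in 2 of the 7 promoters, 14 bases before the start of Atg5 and 132 bases before the internal start of Atg7, and in 7.15% of all 32851 promoters in the set. TGACNNNGC was found in Map1lc3b alone, against 12.4% of all promoters, and TGATGCAA in 0 of the 7, against 0.895%. Ulk1 and Wipi1, which fell, held none of the 3 motifs in this window, nor did Gabarapl1 and Sqstm1. Of the 2 genes with CACGTG, Atg5 rose in hair cells and Atg7 did not meet the criteria.

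Ulk1, the kinase that starts autophagosome formation, showed the largest change of the 10 genes in hair cells. Its normalized read numbers were 88.2, 101.2 and 98.1 in control hair cells and 61.7, 50.9 and 58.8 in treated hair cells, with no overlap. The mean fell from 95.9 ± 6.79 to 57.1 ± 5.57 (SD, n = 3), a log2 difference of -0.75 (SE 0.08, 95% confidence interval -0.92 to -0.57, adjusted p = 1.05e-04), so that the level fell by 40.5%. In non-hair cells Ulk1 stood at 109.6, 118.2 and 111.6 in controls and at 105.0, 105.3 and 109.1 after gentamicin. These groups lay apart by a small margin and the log2 difference was -0.09 (SE 0.08, adjusted p = 0.609). The gene lies on chromosome 5 at 110784488 to 110810097, minus strand (GRCm38, GENCODE M21).

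Becn1, the scaffold of the class III phosphatidylinositol 3-kinase complex (chromosome 11, 101285952 to 101302286, minus strand), did not meet the criteria in hair cells. Its values were 120.9, 109.3 and 120.0 in control hair cells and 103.5, 97.0 and 102.0 in treated hair cells, which did not overlap. The log2 difference was -0.21 (SE 0.07, unadjusted p = 0.0102, adjusted p = 0.0352), or 0.864 times the control level, so that it missed both the limit on p and that on fold change. In non-hair cells the values overlapped, with 87.8, 86.5 and 94.8 in controls and 90.9, 88.6 and 99.7 after gentamicin, and the log2 difference was 0.05 (SE 0.07). Becn1 shares 3104 bases of exon with Cntd1 on the opposite strand, whose normalized read number was between 2.34 and 4.37. The strandedness of the counting was not given in the sources used here.

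Wipi1, which binds the lipid made by the Becn1 complex (chromosome 11, 109573331 to 109611967, minus strand), fell in hair cells. It was at 23.3, 22.0 and 20.9 in control and at 16.5, 13.6 and 13.97 in treated hair cells, without overlap. The log2 difference was -0.59 (SE 0.11, 95% confidence interval -0.84 to -0.35, adjusted p = 0.00241), so that the level fell by 33.7%. Non-hair cells held 66.9, 57.2 and 52.4 in controls and 56.4, 52.2 and 47.7 after gentamicin, overlapping groups with a log2 difference of -0.17 (SE 0.11, adjusted p = 0.461). Wipi1 was the least abundant member in hair cells, resting on 301 to 514 reads per replicate.

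The conjugation genes did not move as 1 group. Atg12, the ubiquitin-like protein that is joined to Atg5, was at 66.4, 64.8 and 69.6 in control hair cells and at 91.8, 90.0 and 83.1 in treated hair cells. Every treated replicate lay above every control, and the mean rose from 66.9 ± 2.45 to 88.3 ± 4.59 (SD, n = 3), a log2 difference of 0.40 (SE 0.09, 95% confidence interval 0.20 to 0.60, adjusted p = 0.00672). In non-hair cells the replicates lay in the other order, with 66.3, 75.7 and 68.8 in controls and 59.4, 51.2 and 65.6 after gentamicin. The non-hair cell groups did not overlap, but the log2 difference of -0.26 (SE 0.09, unadjusted p = 0.0139, adjusted p = 0.184) did not meet the criteria. It met them only without treated replicate 3, at -0.35. Atg12 lies on chromosome 18 at 46730144 to 46741580, minus strand.

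Atg5, the partner of Atg12 in the complex that directs Atg8 conjugation (chromosome 10, 44268358 to 44364291, plus strand), rose in hair cells. Its values were 19.6, 22.4 and 23.0 in control and 29.4, 31.9 and 30.2 in treated hair cells, with no overlap. The mean went from 21.7 ± 1.82 to 30.5 ± 1.24 (SD, n = 3), a log2 difference of 0.50 (SE 0.09, 95% confidence interval 0.29 to 0.71, adjusted p = 0.00261), or 41.1% more. Non-hair cells held 28.1, 24.4 and 26.6 in controls and 31.7, 33.0 and 28.3 after gentamicin. These groups lay apart only narrowly, and the log2 difference of 0.23 (SE 0.09, unadjusted p = 0.0323, adjusted p = 0.247) did not meet the criteria.

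Atg7, the activating enzyme for both Atg12 and the Atg8 proteins (chromosome 6, 114643097 to 114860614, plus strand), was at 38.8, 40.1 and 40.3 in control and at 38.9, 35.3 and 41.1 in treated hair cells. Its hair cell groups overlapped, with a log2 difference of -0.05 (SE 0.08, 95% confidence interval -0.22 to 0.12). In non-hair cells it was at 43.4, 39.0 and 45.2 in controls and at 44.6, 47.8 and 44.1 after gentamicin, again with overlap (log2 difference 0.10, SE 0.08). The whole interval in hair cells lay inside the 1.2-fold limit. Reads recovered for Atg7 and Becn1 were not whole numbers in most replicates, unlike those of the other 8 genes, which were whole within 0.15 in all 12 replicates.

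None of the 3 Atg8 family members met the criteria in hair cells, where 2 of them, against 44.2% of all genes, had an unadjusted p under 0.05. The treated and control values of each lay apart, as they did for 54.8% of all genes. Map1lc3a, an LC3 protein (chromosome 2, 155276297 to 155278073, plus strand), was at 91.1, 86.2 and 86.8 in control and at 79.3, 83.4 and 73.1 in treated hair cells (log2 difference -0.17, SE 0.07, adjusted p = 0.0723). Map1lc3b, the LC3 protein most used as an autophagosome marker (chromosome 8, 121590361 to 121598760, plus strand), was at 88.5, 89.2 and 88.9 in control and at 86.0, 77.4 and 86.1 in treated hair cells (log2 difference -0.10, SE 0.06, adjusted p = 0.248). The control spread of Map1lc3b was the smallest of the 10 genes, at 0.432% of its mean. Gabarapl1, of the GABARAP branch (chromosome 6, 129533160 to 129542346, plus strand), was at 125.1, 130.1 and 137.2 in control and at 110.6, 101.5 and 115.9 in treated hair cells (log2 difference -0.26, SE 0.09, adjusted p = 0.053).

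In non-hair cells Gabarapl1 was the 1 member that met the criteria, and it did so narrowly. It was at 122.0, 145.2 and 141.9 in controls and at 111.9, 98.7 and 122.2 after gentamicin, so that the groups overlapped. The log2 difference was -0.30 (SE 0.09, unadjusted p = 0.00834, adjusted p = 0.154). The call was lost when any of control replicates 2 and 3 or treated replicates 1 and 2 was left out, with log2 differences of -0.25, -0.27, -0.31 and -0.22. Map1lc3a was at 92.8, 83.7 and 89.6 against 82.0, 79.6 and 83.9 after gentamicin (log2 difference -0.12, SE 0.07). Map1lc3b was at 156.8, 147.1 and 149.2 against 143.7, 157.0 and 146.4 (log2 difference -0.02, SE 0.06), and the groups of both genes overlapped. Map1lc3b shares 58 bases of exon with Zcchc14, whose normalized read number was between 73.4 and 168.6, and Gabarapl1 shares 570 bases with 1700101I11Rik (1.12 to 1.67), each on the opposite strand.

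Sqstm1, the cargo receptor also known as p62 (chromosome 11, 50199366 to 50210827, minus strand), did not meet the criteria in either population. It was at 162.1, 166.6 and 151.4 in control and at 149.1, 146.8 and 144.0 in treated hair cells, which lay apart by a small margin (log2 difference -0.12, SE 0.07, adjusted p = 0.197). In non-hair cells it was at 318.6, 309.6 and 280.7 in controls and at 287.2, 274.8 and 310.4 after gentamicin, with overlap (log2 difference -0.06, SE 0.07). Sqstm1 shares 580 bases of exon with Mrnip on the opposite strand.

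The responses of the populations were compared directly by an interaction contrast, which takes the difference with gentamicin in hair cells minus that in non-hair cells, called at an adjusted p under 0.05. It was met by 2 of the 10 genes, 1 in each direction, against 13.4% of all genes, 6.85% upward and 6.57% downward (51.1% of these calls upward, or 67.7% scaled by total reads). For Ulk1 the hair cell response lay below the non-hair cell response by a log2 difference of -0.66 (SE 0.11, adjusted p = 0.0053). For Atg12 it lay above by 0.66 (SE 0.13, adjusted p = 0.00888), the separate values being 0.40 and -0.26. The other genes that changed in hair cells were not shown to differ between populations, with -0.42 for Wipi1 (SE 0.16, adjusted p = 0.0976) and 0.27 for Atg5 (SE 0.13, adjusted p = 0.208). Without control non-hair cell replicate 1 Wipi1 passed as well, at -0.52 (adjusted p = 0.0487). It also passed with the replicate number as a block (-0.42, adjusted p = 0.0298), and did not with a block within each treatment (adjusted p = 0.0571). Becn1 stood at -0.26 (SE 0.10, adjusted p = 0.0933), and the remaining 5 genes lay between -0.15 and 0.04.

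**Figure D2:**
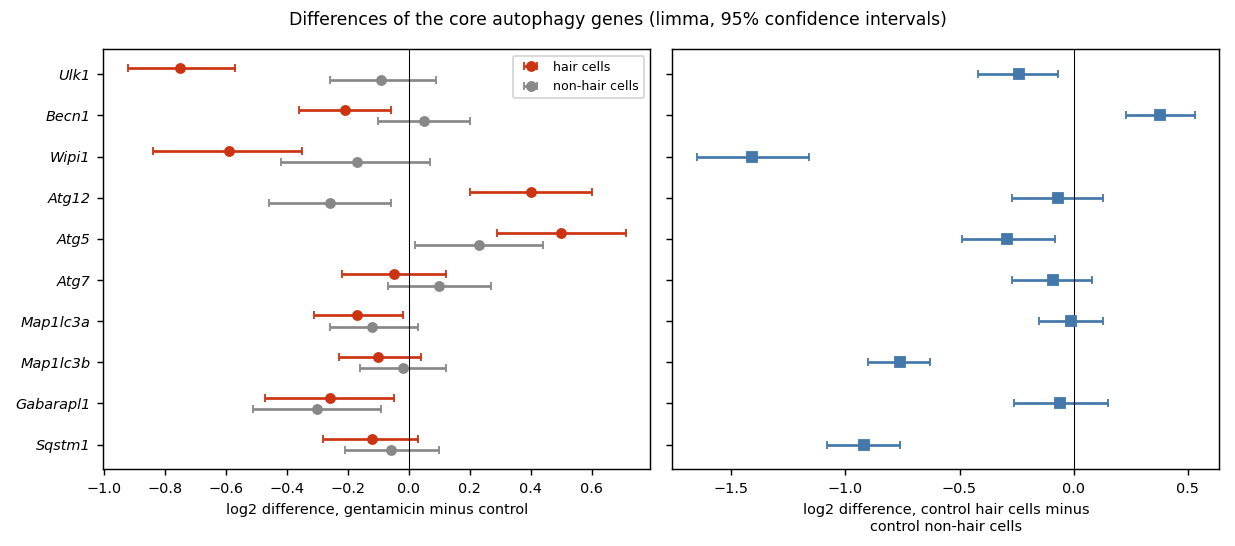
Log2 differences of the 10 genes with 95% confidence intervals from limma, on the left gentamicin minus control in hair cells (red) and non-hair cells (grey), on the right control hair cells minus control non-hair cells (n = 3 in each group). Ulk1 at -0.75 and Atg12 at 0.40 in hair cells lay clear of their non-hair cell values of -0.09 and -0.26, and on the right Wipi1 (-1.41), Sqstm1 (-0.92) and Map1lc3b (-0.76) lay farthest below 0.

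Ratios between 2 members within 1 replicate depend on how the replicate was scaled only through the 1 added to each value, which weighs more for low genes. These pairs were chosen after the values were seen and are given as a description, with no test. The log2 ratio of Atg12 to Ulk1 was -0.41, -0.64 and -0.50 in control hair cells and 0.57, 0.82 and 0.50 in treated hair cells. Atg12 thus went from below to above Ulk1 in hair cells, while in non-hair cells it lay below Ulk1 in all 6 replicates, between -0.72 and -0.64 in controls and between -1.04 and -0.73 after gentamicin. The log2 ratio of Atg5 to Wipi1 was -0.25, 0.02 and 0.14 in control and 0.84, 1.23 and 1.11 in treated hair cells. In non-hair cells it was -1.25 to -0.97 in controls and -0.83 to -0.66 after gentamicin, so that it was also higher in every treated replicate there. The ratio of Atg12 to its partner Atg5 overlapped between control and treated hair cells, with means of 1.63 ± 0.12 and 1.53 ± 0.10 (SD, n = 3). In non-hair cells it did not overlap, at 1.24, 1.63 and 1.37 in controls and 0.91, 0.63 and 1.21 after gentamicin. The log2 ratio of Map1lc3b to Map1lc3a separated the populations instead, lying between -0.11 and 0.24 in the 6 hair cell replicates and between 0.74 and 0.98 in the 6 non-hair cell replicates.

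**Figure D3:**
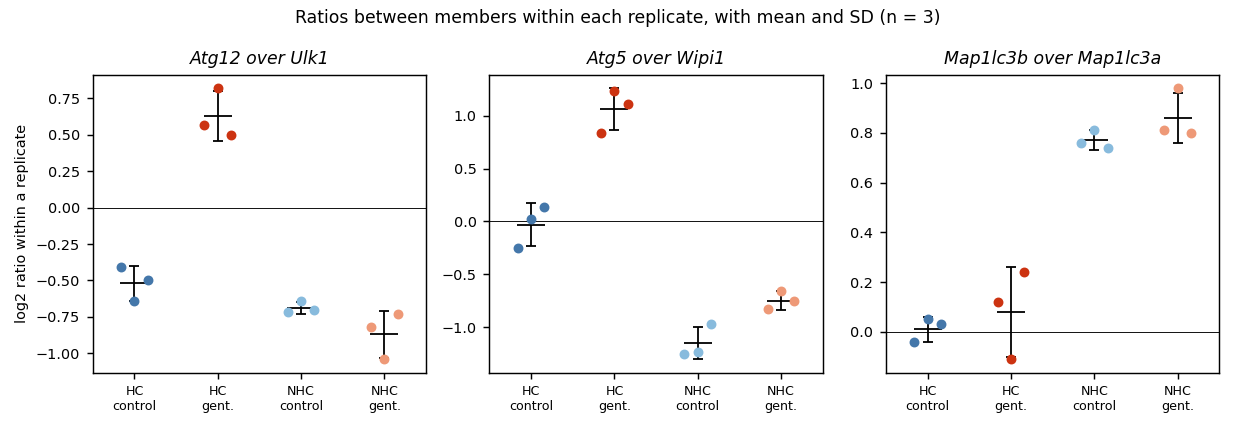
Log2 ratios between pairs of members within each replicate (points), with the mean and SD of each group (n = 3), in hair cells (HC) and non-hair cells (NHC), control and gentamicin-treated (gent.). Atg12 over Ulk1 lay below 0 in all control and above 0 in all treated hair cell replicates and below 0 in all non-hair cell replicates, and Map1lc3b over Map1lc3a was near 0 in hair cells and near 0.8 in non-hair cells.

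Before treatment the populations differed in 6 of the 10 genes at an adjusted p under 0.05, with 1 higher and 5 lower in hair cells. Of all genes tested 74.1% differed, 31.9% higher and 42.2% lower in hair cells, and 79.2% did not overlap between the populations, against 6 of the 10. Wipi1 was lower in hair cells by a log2 difference of -1.41 (SE 0.11, adjusted p = 3.84e-07), at 0.377 times the non-hair cell level. Sqstm1 was lower by -0.92 (SE 0.07, adjusted p = 3.04e-07) and Map1lc3b by -0.76 (SE 0.06, adjusted p = 4.52e-07), at 0.529 and 0.589 times. Becn1 was the 1 gene that was higher in hair cells, by 0.38 (SE 0.07, adjusted p = 3.44e-04). Ulk1 (-0.24, SE 0.08, adjusted p = 0.0168) and Atg5 (-0.29, SE 0.09, adjusted p = 0.0171) were also lower, but both calls were lost when replicates were scaled by the median of ratios, at -0.12 and -0.16. The call of Ulk1 was also lost without control hair cell replicate 1 (-0.18) or control non-hair cell replicate 2 (-0.21), and that of Atg5 without replicate 1 of either population (-0.21 and -0.24). That scaling moved the median of all genes from -0.12 to -0.01. Atg12, Atg7, Map1lc3a and Gabarapl1 lay between -0.09 and -0.01 and overlapped between the populations, and their sign turned under the same scaling, to between 0.03 and 0.11.

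Per kilobase of exon, Map1lc3a was the most abundant of the 10 transcripts in control hair cells, at 73.7 ± 2.26 normalized reads per kb (SD, n = 3). Gabarapl1 followed at 64.5 ± 3.01 and Sqstm1 at 47.4 ± 2.32. The next genes were much lower, with Becn1 at 16.4 ± 0.909 and Ulk1 at 14.6 ± 1.05, neighbours whose ranges of mean ± SD overlapped. Map1lc3b was at 11.7 ± 0.0511, and Atg5 at 8.79 ± 0.774 and Atg12 at 8.55 ± 0.318 were again not separated by their spread. Atg7 at 5.56 ± 0.114 and Wipi1 at 4.78 ± 0.274 were the lowest. In control non-hair cells Sqstm1 came first at 90.0 ± 5.90, ahead of Map1lc3a at 74.3 ± 3.88 and Gabarapl1 at 67.3 ± 6.25, the last pair not separated by their spread. Wipi1 stood at 13.1 ± 1.68 there, within the spread of Becn1 at 12.6 ± 0.636, and Atg7 was the lowest at 5.96 ± 0.454. Lengths were the union of exons in GENCODE M21, so a gene with long annotated exons that these cells do not use is understated.

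**Figure D4:**
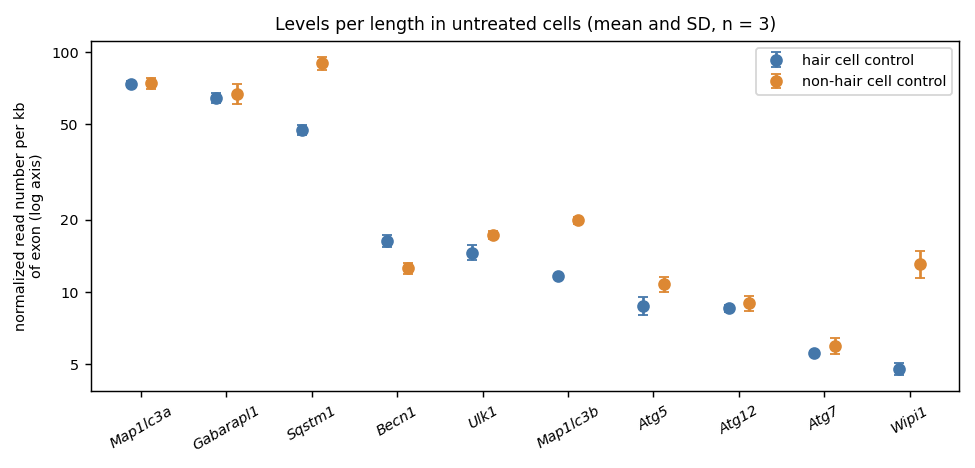
Normalized read number per kb of exon (log axis) of the 10 genes in control hair cells (blue) and control non-hair cells (orange), mean and SD (n = 3), ordered by the hair cell level. The values of Map1lc3a and of Gabarapl1 differed between the populations by less than their SDs, while Sqstm1 (47.4 and 90.0), Map1lc3b (11.7 and 19.96) and Wipi1 (4.78 and 13.1) were lower in hair cells.

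The other genes of the pathway were taken from a list of 62 autophagy genes in 8 roles, all of which were found and tested. In hair cells 13 of the 62 (21.0%) met the criteria, 5 higher and 8 lower, against 27.5% of all genes. At an unadjusted p under 0.05 in limma there were 30 (48.4%, against 44.2% of all genes). Which share was larger thus depended on the threshold. The median log2 difference of the 62 was -0.07, against -0.09 over all genes. In the class III kinase complex 2 of 7 rose (28.6%, against 12.7% of all genes) and 0 fell (against 14.8%). Each role held only 2 to 16 genes. Atg14, which directs the Becn1 complex to autophagosome formation, was at 19.2, 21.4 and 19.1 in control and at 33.4, 37.3 and 33.3 in treated hair cells. The treated values lay well above the controls, by a log2 difference of 0.80 (SE 0.10, adjusted p = 1.97e-04). Uvrag, which takes its place in a Becn1 complex of endosomes, rose by 0.47 (SE 0.07, adjusted p = 5.82e-04).

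In the ULK complex Ulk2, the paralogue of Ulk1, fell as well (log2 difference -0.35, SE 0.07, adjusted p = 0.00462). It was the 1 of 4 that met the criteria, against 27.5% of all genes. Of the 9 genes of membrane supply 2 rose (22.2%, against 12.7% of all genes). These were Tmem41b (0.50, SE 0.10) and Wdr45b (0.31, SE 0.10, adjusted p = 0.0322), which is of the same protein family as Wipi1. None of the 8 further conjugation enzymes and neither of the other Atg8 genes, Gabarap and Gabarapl2, met the criteria in limma, and at an unadjusted p under 0.05 there were 5 and 0 of them, against 44.2% of all genes. Among 10 cargo receptors 3 fell, against 14.8% of all genes. Those that fell were Optn (-0.61, SE 0.16), Wdfy3 (-0.37, SE 0.08) and Calcoco1 (-0.35, SE 0.09), the first from a normalized read number of only 3.95 to 2.58.

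Of the 6 fusion genes 2 fell (33.3%, against 14.8% of all genes). Stx17, the SNARE of the closed autophagosome, was at 33.3, 39.2 and 40.5 in control and at 24.1, 22.3 and 21.8 in treated hair cells, a log2 difference of -0.72 (SE 0.09, adjusted p = 2.96e-04). Plekhm1, an adaptor for fusion with lysosomes, fell by 0.63 on the log2 scale (SE 0.09, adjusted p = 4.13e-04). Among 16 upstream regulators 3 met the criteria (18.8%, against 27.5% of all genes). Prkaa1, a catalytic subunit of the energy sensor AMPK, rose by 0.53 (SE 0.07, adjusted p = 2.23e-04). Sesn2 (-0.70, SE 0.16) and the growth kinase Mtor (-0.28, SE 0.09, adjusted p = 0.029) fell. In non-hair cells 1 of the 62 met the criteria (1.61%, against 5.44% of all genes), Deptor, an inhibitor of Mtor, which went from 3.86 to 6.43 (log2 difference 0.72, SE 0.18, adjusted p = 0.0936).

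**Figure D5:**
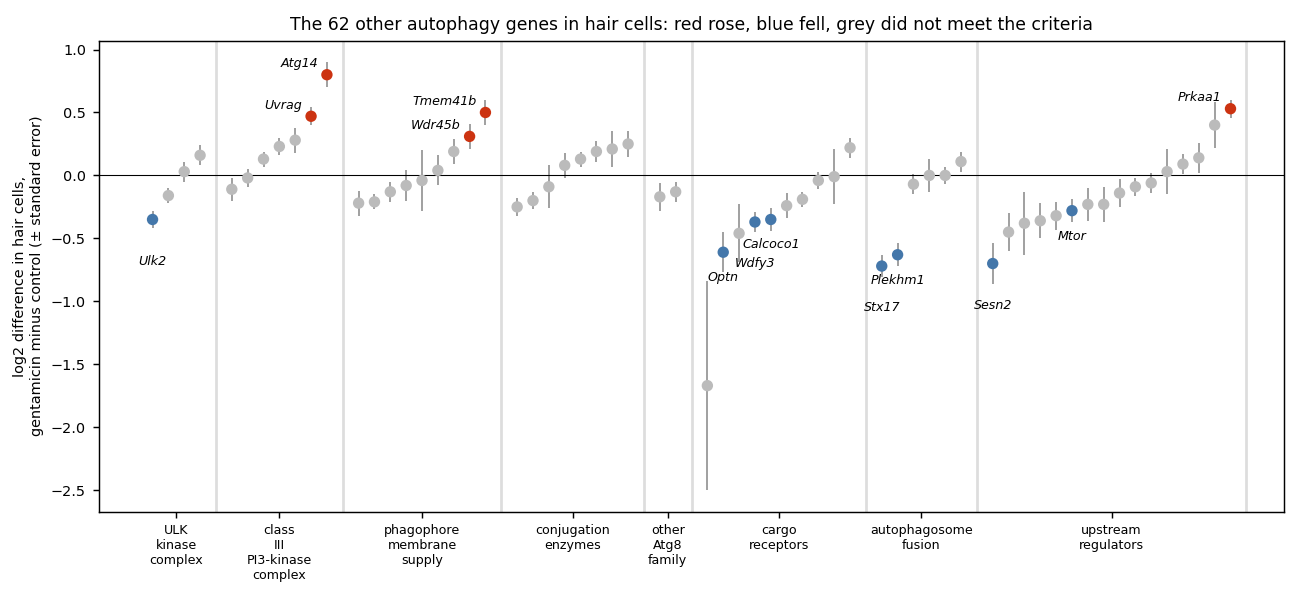
Log2 difference with gentamicin in hair cells of the 62 other autophagy genes (vertical axis, with standard errors), arranged by role and within a role by size; red points rose, blue points fell and grey points did not meet the criteria (n = 3 in each group). The 13 named genes met the criteria, from Atg14 at 0.80 to Stx17 at -0.72, and the grey point at -1.67 with the wide error bar is Bnip3.

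In the interaction contrast 8 of the 62 differed between the populations, 4 in each direction (12.9%, against 13.4% of all genes), the largest being Atg14 at 0.69, Stx17 at -0.66, Plekhm1 at -0.60, Prkaa1 at 0.57 and Mtor at -0.51. Between the control populations 45 of the 62 differed (72.6%, against 74.1% of all genes), 23 higher and 22 lower in hair cells. All 4 further genes of the ULK complex, against 31.9% of all genes, were higher in hair cells, by 0.26 (Atg101) to 0.57 (Ulk2), whereas Ulk1 itself was lower. The largest differences were Prkaa2, the other catalytic subunit of AMPK, at 326.3 in hair cells and 34.7 in non-hair cells (log2 difference 3.24, SE 0.11), Optn at -2.69, Foxo1 at -2.39, Epg5 at 1.71 and Atg4c at 1.5.

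The genes whose log2 values followed those of the most changed members most closely over the 12 replicates were found by Pearson's correlation among all genes tested, as a description. The 12 replicates fall into 4 groups, and share those group levels. For Ulk1 they were Arhgap12 (0.987), Ctdspl (0.979) and N4bp1 (0.978). For Wipi1 they were Fth1, the heavy chain of ferritin (0.998), Ccbe1 (0.996) and Zfp575 (0.996), all lower in hair cells than in non-hair cells, like Wipi1. For Atg5 they were Selrc1 (0.951), Nudcd2 (0.946) and Polr2h (0.944), an RNA polymerase subunit.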

How the data were processed

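PolyA RNA of sorted cells was sequenced as single-end reads by the authors, who trimmed them and aligned them to mm10 with TopHat 2 (version as in the submitters' processing notes). The deposited values are a normalized read score per gene and replicate, with 1 added. The methods speak of division by gene length, but the scores showed none: after subtraction of 1, the most frequent low step gave back reads, 82.9 to 83.9% of low values being whole within 0.1. The annotation and the counting of shared reads were not given in the sources used here. log2 scores of 16077 genes whose recovered reads summed to 100 or more were fitted in limma 3.58.1 (R 4.3.3), 4 groups in 1 model, with trend. Benjamini-Hochberg adjustment covered all genes tested, and the procedure was tested on simulated data.

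The 10 genes, the pathway list, the markers and the thresholds were chosen with earlier results of these data known. Named from the pathway list were, in hair cells, up to 3 genes per role that met the criteria, and for other contrasts up to 5 with the largest difference. Replicate numbers came from column headers. Deviations of same-numbered control hair and non-hair cells correlated (0.20 to 0.316), but those of control and treated hair cells did not pass 0.1 (0.0369 to 0.0523). Whether all replicates came from separate litters was not stated, so p-values measure the spread between these replicates. Read numbers carry no molecular identifiers. Alternatives were other scalings, offset, read minimum, replicate block, the compared groups alone, no trend, other thresholds and leaving out each replicate; a block within each treatment was chosen after seeing the data. Per-kb levels, positions and overlaps came from GENCODE M21.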

Additional observations from a re-analysis of the deposited data

Results flagged for a closer look

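The difference between the hair cell and the non-hair cell response, tested by the interaction contrast at an adjusted p under 0.05, drew attention to 10 genes. They were 2 of the 10 core genes and 8 of the 62 other autophagy genes (12.9% of the 62). Of all genes tested 13.4% met the same threshold, so the 62 did not stand out from the rest by their share. Among the core genes these were Ulk1, with a log2 difference of -0.66, and Atg12, with 0.66. Among the other autophagy genes the response in hair cells lay above that in non-hair cells for Atg14 (0.69), Prkaa1 (0.57), Tmem41b (0.48) and Uvrag (0.41), and below it for Stx17 (-0.66), Plekhm1 (-0.60), Mtor (-0.51) and Wdfy3 (-0.40). Mtor stood at 88.7, 91.9 and 98.3 in control and at 106.1, 110.1 and 110.6 in treated non-hair cells, and at 118.7, 114.4 and 117.4 in control and 86.3, 92.8 and 111.8 in treated hair cells, so that the groups lay apart in opposite directions.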

How the results depend on the processing

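In hair cells the 4 calls among the 10 genes became 2 with a fold change above 1.5, and the 13 calls among the 62 other genes became 5. At an adjusted p under 0.05 the calls among the 62 were 20, and with no trend 11. They ranged from 10 to 16 when single replicates were left out, where 3288 to 4133 of all genes passed. Of all 16077 genes tested 4418 met the main criteria, 2074 did so with a fold change above 1.5 and 5332 had an adjusted p under 0.05. In non-hair cells the 1 call among the 10 became 0 under scaling by total reads, the 2 groups alone, no trend, an adjusted p under 0.05 and a fold change above 1.5, and ranged from 0 to 2 when single replicates were left out. Of all genes 875 met the main criteria in non-hair cells, 55 had an adjusted p under 0.05 and 219 passed with a fold change above 1.5. With single replicates left out 411 to 1570 of all genes passed. The 1 call among the 62 became 0 under a minimum of 1000 reads, an adjusted p under 0.05 and an offset of 0.1, and ranged from 1 to 3 when single replicates were left out, being 2 or 3 without control replicate 1 or 3 or any treated replicate. Among the 10 genes the count was 2 or 3 in the interaction and 4 to 6 between control populations under every alternative run. Over all genes it was 1163 to 2378 in the interaction and 10075 to 12632 between control populations. At an unadjusted p under 0.05 alone, 3 of the 10 and 8 of the 62 passed in non-hair cells, against 17.1% of all genes.

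Signs turned only for differences near 0. Under scaling by total reads these were Atg7 in hair cells (0.04), Map1lc3b in non-hair cells (0.00), and Map1lc3a (0.02) and Sqstm1 (0.01) in the interaction. Between control populations scaling by the median of ratios gave 0.05 for Atg12, 0.03 for Atg7, 0.11 for Map1lc3a and 0.07 for Gabarapl1. With single replicates left out, ranges that crossed 0 were -0.10 to 0.01 for Atg7 in hair cells, -0.06 to 0.01 for Map1lc3b in non-hair cells, -0.09 to 0.00 for Map1lc3a and -0.04 to 0.12 for Gabarapl1 in the interaction, and -0.05 to 0.02 for Map1lc3a between control populations. The cause of these changes was not tested.

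The 4 calls in hair cells kept direction and criteria in every replicate left out and every scaling (Ulk1 -0.81 to -0.67, Wipi1 -0.68 to -0.54, Atg12 0.37 to 0.44, Atg5 0.43 to 0.54 over the replicates left out). With the replicate number as a block the counts among the 10 genes were 4 in hair cells, 1 in non-hair cells, 3 in the interaction and 6 between control populations. The 1 change was that Wipi1 passed in the interaction (-0.42, adjusted p = 0.0298). It also passed without replicate 1 of control non-hair cells (-0.52, adjusted p = 0.0487), and did not with the block within each treatment (adjusted p = 0.0571), under which the calls among the 10 genes were 2 in the interaction and 6 between control populations. Deviations of same-numbered control and treated non-hair cells correlated between -0.232 and 0.683.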

Other observations

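Bnip3, a receptor for mitochondria that is induced at low oxygen, varied more between replicates than the other autophagy genes named here. It was at 301.8, 319.3 and 264.5 in control and at 201.6, 150.4 and 26.2 in treated hair cells, and at 409.4, 382.3 and 296.7 in control and 393.2, 36.7 and 199.9 in treated non-hair cells. Its relative Bnip3l had its lowest values in the same replicates, 110.3 in treated hair cell replicate 3 and 154.8 in treated non-hair cell replicate 2, against 207.6 to 214.1 in control hair cells and 258.2 to 336.4 in control non-hair cells. Neither gene met the criteria in hair cells, with a log2 difference of -1.67 (SE 0.83, adjusted p = 0.142) for Bnip3. Treated non-hair cell replicate 2 also held the lowest values of Atg12 (51.2) and Gabarapl1 (98.7) among the non-hair cell replicates. These genes were chosen after their values were seen.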
